A study of Homo sapiens with 6 samples.

Results

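The comparison takes both MDA-MB-231 derivatives that grow in rapamycin analogs (rapalogs) as 1 resistant group of 4 RNA-seq libraries and sets it against the 2 parental libraries, over all genes. All 6 of the 6 libraries of the study enter it. MDA-MB-231 is an established human cell line from a triple-negative breast cancer, of mesenchymal character. The parental group received no drug according to the treatment protocol, although a label field gives it DMSO. The everolimus group is the derivative MDA-MB-231/DREVE, kept in 20 µM everolimus, and the ridaforolimus group is MDA-MB-231/DRRIDA, kept in 30 µM ridaforolimus, each for several months and still in drug up to RNA extraction. All 3 groups grew in DMEM with fetal bovine serum, and each has 2 libraries. Each resistant line is a single derivative, so resistance, the presence of the drug and drift of that derivative in culture cannot be told apart. The labels do not say that the libraries of a group came from separate cultures, so p-values measure the spread between these libraries, which may be technical. The 4 resistant libraries come from 2 lines and are not 4 independent cases of resistance.

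Everolimus and ridaforolimus bind the small immunophilin FKBP12, and the complex inhibits the kinase mTOR in its growth-promoting complex mTORC1. Active mTORC1 raises translation through the S6 kinases and the 4E-BP repressors, and it drives amino-acid uptake and synthesis through the transcription factor ATF4. In breast cancer cells, loss of this output can be offset by other growth signals, among them PI3K and AKT, and the study's title points to PMEPA1, to TGF-beta and to PI3K/AKT activation. Pooling the lines asks which differences from parental cells are shared by cells selected in either drug.

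Depth was 13134567 to 15556246 counts per library, and 32356 to 33463 genes had a count in each. The 9 markers of MDA-MB-231 cells summed to 4229 and 4505 CPM (counts relative to a library's scaled total) in the parental libraries. In the resistant libraries they summed to 5574 to 9762 CPM. Much of this sum was FN1, AXL and MSN. FN1 was at 1363 and 1081 CPM in parental, 2827 and 2346 CPM in everolimus and 1204 and 5286 CPM in ridaforolimus libraries. AXL was at 1069 and 1149 CPM in parental and 995.9 to 1558 CPM in resistant libraries. MSN was at 780.5 and 684.8 CPM in parental, 362.4 and 589 CPM in everolimus and 1436 and 1616 CPM in ridaforolimus libraries. Of the 8 markers tested, 1 (12.5%, against 9.54% of all genes) was higher in all 4 resistant libraries, VIM. One of the 9 markers, SPARC, was nearly absent, at no more than 1.02 CPM in any library. Leukocyte and fibroblast markers were low. Of 7 leukocyte genes 6 were under 1 CPM in every library, with CD3E and MS4A1 at 0, and their sum was 1.69 and 2.52 CPM in parental and 0.397 to 2.27 CPM in resistant libraries. Of 9 fibroblast genes 6 were under 1 CPM everywhere, with LUM at 0, and their sum was 10.8 and 12.4 CPM in parental and 6.67 to 16.9 CPM in resistant libraries. Of 9 luminal breast genes 4 were under 1 CPM everywhere, ESR1 and PGR among them, but the list summed to 278 and 282 CPM in parental and 178 to 305 CPM in resistant libraries, most of it from XBP1, KRT19 and ERBB2. Mitochondrial transcripts took 4.38% and 3.0% of the parental counts and 2.15% to 3.19% of the resistant ones. In bulk RNA, fewer cells with a transcript and less of it per cell cannot be told apart.

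No gene passed the threshold when the 4 resistant libraries were treated as 1 group. Of 21223 genes tested, 0 (0%) had an adjusted p under 0.05 in edgeR's quasi-likelihood test, while 1580 (7.44%) had an unadjusted p under 0.05, of which 798 (3.76%) were higher and 782 (3.68%) lower. The resistant group holds 2 lines, so the differences between them count as error in this test. DESeq2 on the same genes and groups called 88, of which 32 (0.151% of genes tested) were higher and 56 (0.264%) lower, and limma-voom called 0, with 1531 at an unadjusted p under 0.05. With the lines fitted as separate groups and the mean of their 2 differences tested, edgeR called 5 genes (0.0236%), all lower: CASC19, TNS4, CSF3, SPANXB1 and C11orf86. The genes named below as lower or higher in both lines were therefore taken by direction and lowest unadjusted p, not by the size of the difference. Test values stand beside them, and none is called by the first test.

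Both lines lay on the same side of parental cells for 13686 genes (64.5%), 7226 (34%) higher and 6460 (30.4%) lower. These shares use the same 2 parental libraries for both lines, so a high or low parental value moves both differences together, and nothing is read from them. All 4 resistant libraries lay above both parental ones for 2024 genes (9.54%) and below both for 2067 (9.74%). In each line 264 genes (1.24%) were at least 2-fold higher and 186 (0.876%) at least 2-fold lower, with all 4 libraries apart from parental. Among the 12103 genes with a mean of at least 5 CPM, 26 (0.215%) were at least 2-fold higher in each line with all 4 libraries apart from parental, and 56 (0.463%) were at least 2-fold lower. Of these genes, 72 had a gene symbol other than that of a pseudogene, clone, LINC or antisense RNA, and 19 of them were higher and 53 lower. DESeq2 called 38 of the 72. Lower genes also led the ranking by p: of the 20 lowest, 18 were lower in resistant cells.

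**Figure D1:**
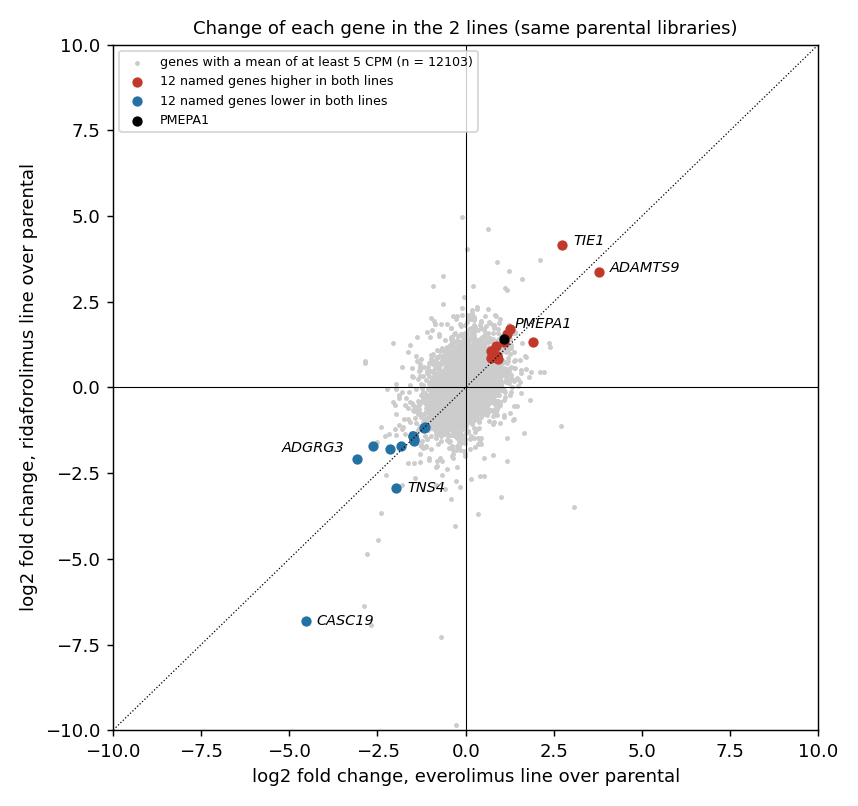
Log2 fold change over parental cells of each gene with a mean of at least 5 CPM, with the everolimus line on the horizontal and the ridaforolimus line on the vertical axis; coloured points are named genes and the dotted line marks equal change. Both axes use the same 2 parental libraries. The 12 named lower genes lie in the lower left quadrant, CASC19 farthest out at -4.53 and -6.82, and the 12 named higher genes lie in the upper right one.

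The 12 named lower genes had the lowest unadjusted p among genes averaging at least 5 CPM and lower in all 4 resistant libraries. Pseudogene, clone, LINC and antisense names were left out beforehand, and the 12 included membrane, junction and adhesion genes. The stomatin gene STOM, which encodes a membrane protein of lipid rafts, stood at 107 and 110 CPM in parental libraries, 46.2 and 32.1 CPM in everolimus libraries and 32.4 and 41.4 CPM in ridaforolimus libraries. Its levels in the lines overlapped each other and stayed well below both parental values. The pooled log2 fold change was -1.51 ± 0.19 (SE, adjusted p = 0.183 by edgeR and 3.16e-06 by DESeq2). STOM lies on chromosome 9 at 121338988 to 121370304, minus strand, of GRCh38.

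MISP encodes an actin-binding protein that helps to position the mitotic spindle. It stood at 65.4 and 48.5 CPM in parental, 15.7 and 16.3 CPM in everolimus and 22.3 and 12.3 CPM in ridaforolimus libraries, a difference of -1.77 ± 0.25 (adjusted p = 0.183 by edgeR, 1.0e-05 by DESeq2). The SNARE gene VAMP8, whose product fuses endosomes, lysosomes and autophagosomes, had 35.8 and 28.5 CPM in parental cells against 10.3 and 12.8 CPM in the everolimus and 9.91 and 12.7 CPM in the ridaforolimus line. For both genes the 2 lines reached nearly the same level: the line difference was 0.11 for MISP and -0.03 for VAMP8 on the log2 scale. VAMP8 differed from parental by -1.49 ± 0.21 (adjusted p = 0.183, edgeR).

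Tensin 4, the product of TNS4, is a tensin family protein of focal adhesions. TNS4 had 194 and 188 CPM in parental libraries, 52.0 and 46.0 CPM in the everolimus and 18.9 and 30.8 CPM in the ridaforolimus libraries. All 4 resistant values were far below parental, and the ridaforolimus values were below the everolimus ones, a line difference of -0.98 that did not pass (adjusted p = 0.135, edgeR). The pooled difference was -2.37 ± 0.34 (adjusted p = 0.183), and the mean over the 2 lines passed (adjusted p = 0.0168, edgeR with 3 group means).

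CLDN7, a tight-junction claudin of epithelia, had 15.1 and 12.5 CPM in parental libraries and 4.5 to 5.84 CPM in all 4 resistant ones, a difference of -1.46 ± 0.24 (adjusted p = 0.256, edgeR). EPB41L4B, a FERM-domain protein of the cell cortex, had 52.0 and 52.9 CPM in parental and 19.8 to 26.1 CPM in resistant libraries, a difference of -1.19 ± 0.18 (adjusted p = 0.234). Both are genes of the cell border and cortex, and both had nearly equal levels in the 2 lines, with line differences of 0.08 and 0.00. ADGRG3, an adhesion G-protein-coupled receptor, was at 13.4 and 13.0 CPM in parental and 1.06 to 4.24 CPM in resistant libraries (-2.51 ± 0.44, adjusted p = 0.259).

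Signalling and metabolic genes were among the 12 as well. RPS6KA2, which encodes the ERK-activated kinase RSK3, had 89.5 and 95.1 CPM in parental and 25.1 to 42.4 CPM in resistant libraries (-1.45 ± 0.24, adjusted p = 0.256 by edgeR). SMOX, the spermine oxidase of polyamine breakdown, had 44.6 and 42.8 CPM against 16.9 to 22.5 CPM (-1.15 ± 0.19, adjusted p = 0.256). The secreted guidance cue SEMA3A had 19.9 and 26.8 CPM in parental, 4.27 and 3.24 CPM in everolimus and 5.95 and 8.47 CPM in ridaforolimus libraries (-2.09 ± 0.36, adjusted p = 0.256). In each of these genes the lowest parental value was well above the highest resistant value.

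CASC19, a long non-coding RNA of chromosome 8 (127072694 to 127227541, minus strand), showed the largest difference of the 24 genes named for a shared direction. It had 283 and 386 CPM in parental libraries, 19.9 and 9.06 CPM in the everolimus line and 3.20 and 2.7 CPM in the ridaforolimus line. Both lines held little of it, and the ridaforolimus line had less than the everolimus line (line difference -2.29, adjusted p = 0.0499, edgeR). It was the 1 gene of the 24 named with such a call, and the 1 gene called in each line separately against parental cells (the everolimus comparison called 1 gene, 0.00471%, and the ridaforolimus comparison 68, 0.32%). Its pooled difference was -5.26 ± 0.68 and still did not pass (adjusted p = 0.183), while the mean over the lines did (adjusted p = 0.00134).

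RN7SL3, a copy of the 7SL RNA of the signal recognition particle, completes the 12 lower genes. It had 242 and 345 CPM in parental and 53.3 to 107 CPM in resistant libraries (-1.96 ± 0.28, adjusted p = 0.183, edgeR). Near-identical copies of 7SL share reads, and 7SL is not a polyadenylated messenger, so its counts are uncertain. DESeq2 called all 12 lower genes, against 0.264% of all genes as lower, but they were chosen by p in the same libraries, so this count is no further support. The edgeR adjusted p-values of the 12 ran from 0.183 to 0.259.

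**Figure D2:**
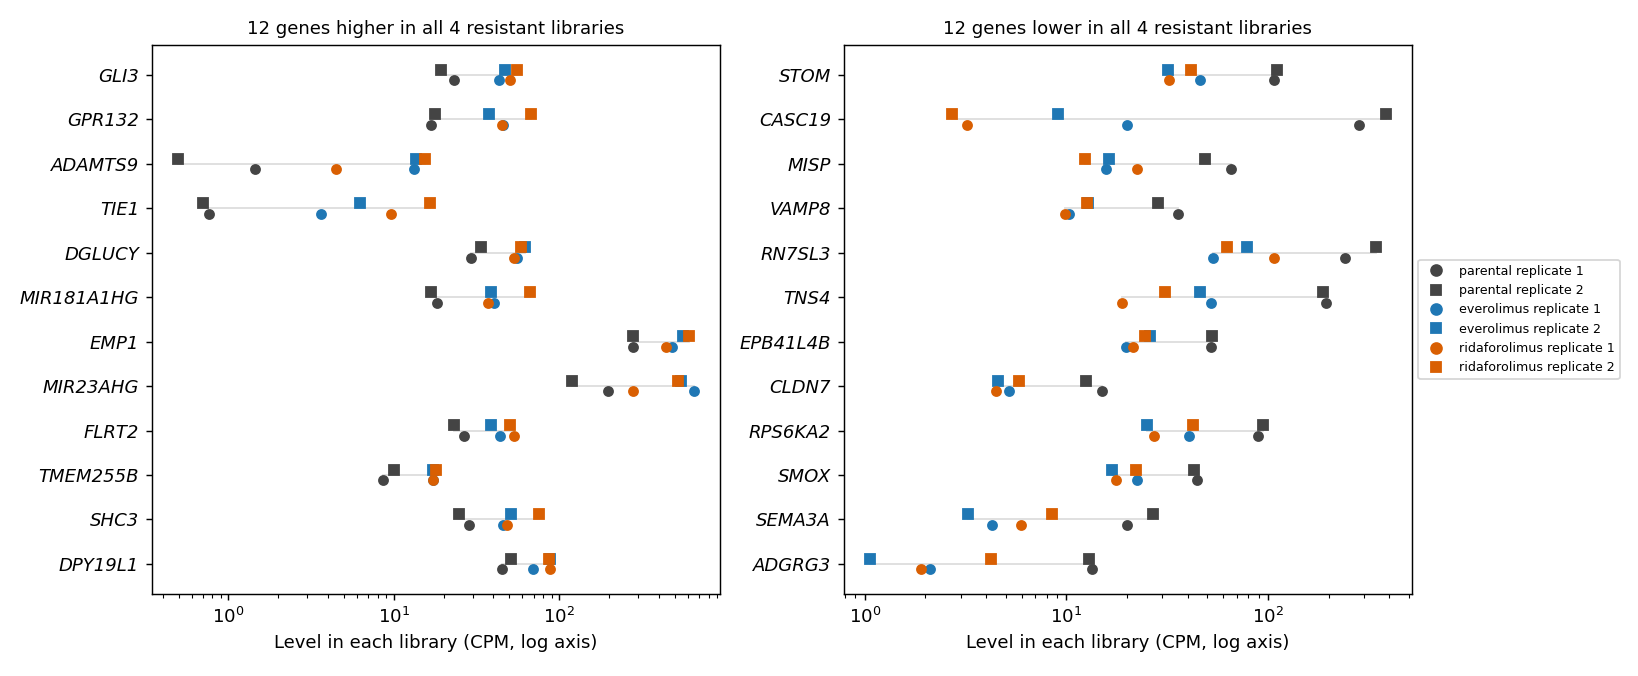
Level of each named gene in each of the 6 libraries, in CPM on a log axis, with circles for replicate 1 and squares for replicate 2 of each group. In all 24 genes the grey parental points lie to 1 side of the 4 coloured points, and in CASC19 the orange ridaforolimus points (3.20 and 2.7 CPM) lie below the blue everolimus points (19.9 and 9.06 CPM).

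The 12 genes higher in both lines held a developmental regulator, receptors, a matrix protease and 2 microRNA host genes. GLI3, a zinc-finger transcription factor of Hedgehog signalling on chromosome 7 (41960950 to 42237870, minus strand), had 23.1 and 19.4 CPM in parental libraries. In the everolimus line it had 43.1 and 47.1 CPM, and in the ridaforolimus line 50.8 and 55.3 CPM. The replicates lay close together and both lines were about equally far from parental, with a pooled log2 fold change of 1.21 ± 0.20 (adjusted p = 0.256 by edgeR, 0.000231 by DESeq2).

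GPR132, a G-protein-coupled receptor that responds to lipids and protons, had 16.7 and 17.7 CPM in parental, 45.6 and 37.4 CPM in everolimus and 44.9 and 67.7 CPM in ridaforolimus libraries (1.51 ± 0.27, adjusted p = 0.267, edgeR). TIE1, a receptor tyrosine kinase best known from endothelium, rested on few reads in parental cells, at 0.764 and 0.704 CPM, against 3.62 and 6.21 CPM in the everolimus and 9.68 and 16.7 CPM in the ridaforolimus line (3.61 ± 0.68, adjusted p = 0.309). The 7 endothelial markers summed to 12.5 and 17.8 CPM in parental and 12.1 to 29.4 CPM in resistant libraries. Among the others of this list, CDH5 was at most 0.382 CPM in any library, VWF at most 1.30 CPM, and PECAM1 was 11.5 and 7.68 CPM in parental against 0.457 to 11.1 CPM in resistant libraries. TEK was low but higher in all 4 resistant libraries, at 0.229 and 0.282 CPM in parental against 0.33 to 0.95 CPM. KDR (3.285 and 2.183 CPM against 0.198 to 4.895 CPM) and CLDN5 (1.15 and 0.845 CPM against 0.292 to 2.25 CPM) overlapped between the groups. The metalloprotease gene ADAMTS9, whose product cuts matrix proteoglycans, had 1.45 and 0.493 CPM in parental, 13.2 and 13.6 CPM in everolimus and 4.5 and 15.5 CPM in ridaforolimus libraries (3.59 ± 0.64, adjusted p = 0.267 by edgeR and 1.87e-06 by DESeq2). TIE1 and ADAMTS9 thus had the largest differences of the 12, from low parental levels.

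EMP1, a tetraspan epithelial membrane protein, had 279 and 278 CPM in parental libraries, 479 and 557 CPM in the everolimus line and 440 and 607 CPM in the ridaforolimus line, a difference of 0.90 ± 0.20 (adjusted p = 0.439 by edgeR, 0.0215 by DESeq2). FLRT2, a cell-surface adhesion and guidance protein, had 26.7 and 23.2 CPM in parental and 38.7 to 53.4 CPM in resistant libraries (0.90 ± 0.20, adjusted p = 0.465, edgeR). SHC3, an adaptor of receptor tyrosine kinases, had 28.4 and 24.7 CPM against 46.0 to 75.2 CPM (1.06 ± 0.25, adjusted p = 0.478). These 3 differences were near 2-fold and alike in the lines, with line differences of 0.02, 0.33 and 0.35.

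DGLUCY, a mitochondrial D-glutamate cyclase, had 29.3 and 33.5 CPM in parental and 53.4 to 62.5 CPM in resistant libraries (0.88 ± 0.17, adjusted p = 0.37, edgeR). TMEM255B, a transmembrane protein, had 8.63 and 10.0 CPM against 17.3 to 18.0 CPM (0.91 ± 0.21, adjusted p = 0.465). DPY19L1, of a family of C-mannosyltransferases, had 45.0 and 51.4 CPM against 69.4 to 88.4 CPM (0.79 ± 0.18, adjusted p = 0.478). The resistant levels of TMEM255B were nearly the same in all 4 libraries. Of the 12 higher genes DESeq2 called 11 (0.151% of all genes were called higher), the exception being DPY19L1 (adjusted p = 0.0848). These too were chosen by p in the same libraries.

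The 2 host genes were higher by a similar amount. MIR181A1HG (chromosome 1, 198807493 to 198937429, minus strand) had 18.3 and 16.8 CPM in parental, 40.1 and 38.8 CPM in everolimus and 37.0 and 67.1 CPM in ridaforolimus libraries (1.38 ± 0.29, adjusted p = 0.428, edgeR). MIR23AHG (chromosome 19, 13823880 to 13842928, minus strand) had 199 and 120 CPM in parental, 655 and 545 CPM in everolimus and 280 and 520 CPM in ridaforolimus libraries (1.65 ± 0.37, adjusted p = 0.444). Neither group overlapped parental, although the first ridaforolimus library of MIR23AHG came nearest to it. MIR23AHG is annotated as antisense, and whether the counting used strand is not given here, so reads of an overlapping gene cannot be told apart from its own. The libraries measured the host transcripts, not the mature microRNAs. These are shown because both hosts are among the 12 higher genes, and they lie inside the hosts on the same strand in RefSeq (GRCh38.p14). Capitals mark the seed, bases 2 to 8, which pairs with target messengers, and the miR-181 pair shares 1 seed while the other 3 have a seed each.
hsa-miR-181a-5p: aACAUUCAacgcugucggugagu
hsa-miR-181b-5p: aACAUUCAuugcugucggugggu
hsa-miR-23a-3p: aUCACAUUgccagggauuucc
hsa-miR-27a-3p: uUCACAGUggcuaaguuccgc
hsa-miR-24-3p: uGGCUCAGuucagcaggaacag

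Promoters of the named genes were read from RefSeq (GRCh38.p14), as windows of 300 bases that mostly precede the annotated start, and were found for 10 of the 12 higher and 5 of the 12 lower genes. They were searched on both strands for CACCTG, an E-box that ZEB and SNAI repressors bind, AACCNGTT (grainyhead-like factors), TGANTCA (AP-1) and TGATGNAA (ATF4). CACCTG was in 20.6% of 27305 promoters, TGANTCA in 7.76%, TGATGNAA in 3.67% and AACCNGTT in 1.73%. The E-box was in 1 of the 10 higher promoters (GPR132) and 1 of the 5 lower ones (MISP). The pattern TGANTCA was in 2 of the 10 higher ones (MIR181A1HG and EMP1) and 0 of the 5 lower ones. N stands for any base, so a match to TGANTCA need not be an AP-1 site. The promoters of MISP and EMP1 are shown because each holds its searched pattern more than once, with the matches in capitals. The 2 EMP1 matches, TGAGTCA and TGATTCA, differ at N. MISP lies at chr19:750862-751161, plus strand, and its middle match is on the opposite strand. EMP1 lies at chr12:13196476-13196775, plus strand. A match describes these letters and is not evidence of binding.
MISP: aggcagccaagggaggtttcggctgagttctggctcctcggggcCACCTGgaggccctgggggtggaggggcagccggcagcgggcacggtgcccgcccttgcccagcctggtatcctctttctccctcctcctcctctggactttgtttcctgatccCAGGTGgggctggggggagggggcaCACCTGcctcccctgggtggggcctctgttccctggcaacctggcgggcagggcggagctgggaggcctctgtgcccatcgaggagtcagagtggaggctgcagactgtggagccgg
EMP1: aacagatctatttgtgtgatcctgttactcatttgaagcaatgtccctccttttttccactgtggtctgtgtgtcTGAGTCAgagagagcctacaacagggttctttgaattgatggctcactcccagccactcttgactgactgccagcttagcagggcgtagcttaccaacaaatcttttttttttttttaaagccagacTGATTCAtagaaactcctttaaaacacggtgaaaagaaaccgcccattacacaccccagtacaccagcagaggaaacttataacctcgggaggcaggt

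PMEPA1, the gene the study's title names, encodes a membrane protein that TGF-beta induces and that holds back receptor-activated SMADs. It had 23.2 and 13.3 CPM in parental libraries, 29.8 and 47.1 CPM in everolimus libraries and 50.2 and 47.6 CPM in ridaforolimus libraries. All 4 resistant values were above both parental ones, the first everolimus library nearest to them. The pooled log2 fold change was 1.26 ± 0.30 (95% interval 0.57 to 1.95, adjusted p = 0.494 by edgeR and 0.0362 by DESeq2). An exact permutation test over the 15 arrangements of the libraries gave a two-sided p of 0.0667, the smallest this design allows. The estimate was 1.71 without parental replicate 1 and 0.91 without parental replicate 2.

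The members of 33 pathway lists were counted by direction, since no member of any list passed the edgeR test. Over all genes tested the median log2 fold change was 0.04 and 45.8% were below 0. All 4 resistant libraries lay above both parental ones for 9.54% of all genes and below both for 9.74%, and each list's counts of members higher or lower in all 4 stand beside these shares. These counts and medians describe the lists without a test. In the list paragraphs a DESeq2 value is printed only for members that DESeq2 called, and the others shown did not pass it. It called 0 ER chaperones and 0 aminoacyl-tRNA synthetases. Of the ATF4 targets it called 1 higher, ATF3, and 0 lower. The lists that stood lowest were genes of the MHC class II, ATF4, mitochondrial genome and tRNA synthetase lists, and those that stood highest were the mesenchymal and TGF-beta feedback lists.

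**Figure D3:**
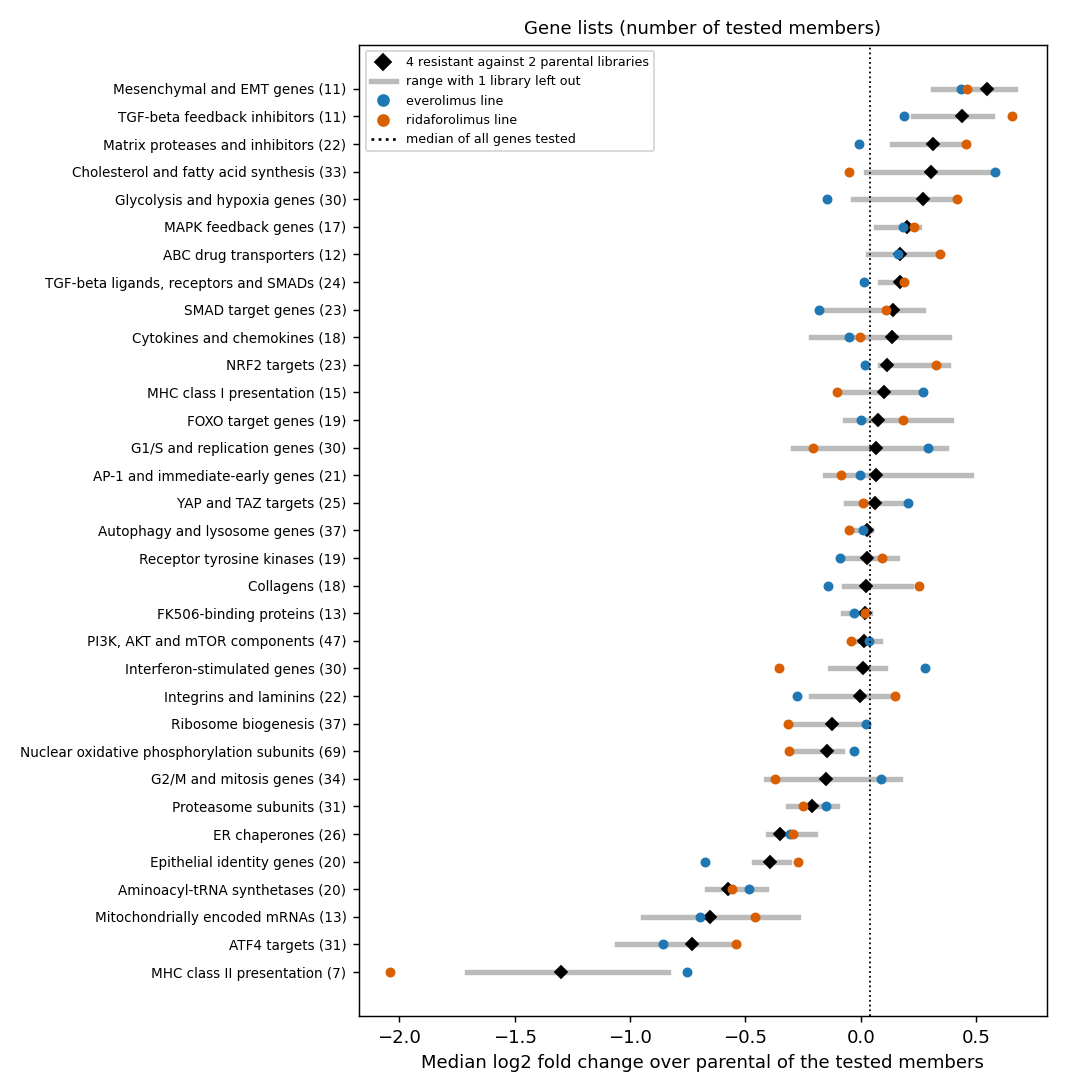
Median log2 fold change over parental cells of the tested members of each of the 33 gene lists: black diamonds for the pooled comparison, grey bars for its range with 1 library left out, coloured dots for each line, and the dotted line for all genes tested. ATF4 targets (-0.73) and MHC class II genes (-1.30) lie at the bottom and mesenchymal genes (0.55) at the top, while mTOR components (0.02) lie on the line of all genes.

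ATF4 switches on genes of amino-acid synthesis, uptake and stress, and mTORC1 is one of its inputs. Of its 31 tested targets 30 were below 0, with a median of -0.73 (-0.86 in the everolimus and -0.54 in the ridaforolimus line), and 13 (41.9%) were lower in all 4 resistant libraries, against 9.74% of all genes. SHMT2, the mitochondrial serine hydroxymethyltransferase, had 542 and 575 CPM in parental, 418 and 199 CPM in everolimus and 404 and 141 CPM in ridaforolimus libraries (-0.94 ± 0.40, adjusted p = 0.664, edgeR). CHAC1, which breaks down glutathione, had 54.5 and 52.4 CPM in parental, 20.4 and 1.65 CPM in everolimus and 36.3 and 3.58 CPM in ridaforolimus libraries (-1.79 ± 0.90, adjusted p = 0.688). Both genes were lower in each resistant library, with 1 library of each line far lower than the other. The proline synthesis enzyme PYCR1 had 40.4 and 53.6 CPM in parental and 17.3 to 32.5 CPM in resistant libraries (-0.87 ± 0.26, adjusted p = 0.613). The exception was ATF3, itself a stress-induced transcription factor, at 59.6 and 44.0 CPM in parental and 97.9 to 195 CPM in resistant libraries (1.27 ± 0.33, adjusted p = 0.546 by edgeR and 0.0478 by DESeq2). ATF4 itself overlapped between the groups, at 399 and 371 CPM in parental and 229 to 414 CPM in resistant libraries. Of the 25 promoters found for this list, 5 (20.0%) held TGATGNAA, against 3.67% of all promoters. The genes are listed because they are ATF4 targets, so this count describes the list and not these cells.

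Aminoacyl-tRNA synthetases, which charge tRNAs and of which many are ATF4 targets, had a median of -0.58, with 17 of 20 below 0 and 9 (45%) lower in all 4 resistant libraries, against 9.74% of all genes. SARS1, the seryl-tRNA synthetase, had 975 and 806 CPM in parental, 609 and 226 CPM in everolimus and 603 and 181 CPM in ridaforolimus libraries (-1.14 ± 0.47, adjusted p = 0.662, edgeR). NARS1, the asparaginyl enzyme, had 121 and 126 CPM in parental and 62.7 to 99.5 CPM in resistant libraries (-0.64 ± 0.21, adjusted p = 0.644). In these lists 2 libraries carried most of the difference. As log2 CPM minus each gene's mean over the 6 libraries, the level of ATF4 targets averaged 0.55 and 0.66 in parental libraries, 0.16 and -0.89 in everolimus libraries and 0.44 and -0.93 in ridaforolimus libraries. The second library of each line was thus low, and the first ridaforolimus library was near the parental level. The median of the ATF4 list moved between -1.06 and -0.53 with 1 library left out.

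**Figure D4:**
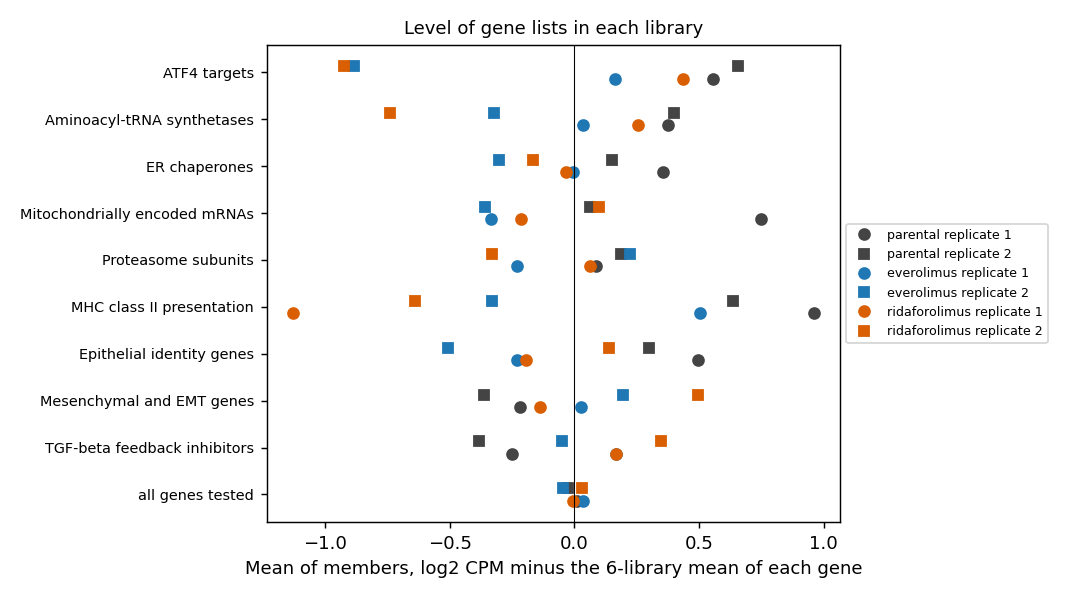
Mean level of the members of 9 gene lists and of all genes tested in each library, as log2 CPM minus the gene's mean over the 6 libraries, with circles for replicate 1 and squares for replicate 2. For ATF4 targets the squares of both resistant lines lie at -0.89 and -0.93, while the circle of the ridaforolimus line (0.44) lies near the parental points (0.55 and 0.66).

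ER chaperones and sensors of unfolded proteins had a median of -0.35, with 24 of 26 below 0 and 8 (30.8%) lower in all 4 resistant libraries, against 9.74% of all genes. Without parental replicate 1 the median was -0.20. ERN1, the gene of the ER stress sensor IRE1, had 126 and 70.6 CPM in parental, 49.5 and 17.5 CPM in everolimus and 41.7 and 36.4 CPM in ridaforolimus libraries (-1.44 ± 0.37, adjusted p = 0.551, edgeR). HSPA5, the chaperone BiP, had 1305 and 928 CPM in parental and 444 to 786 CPM in resistant libraries (-0.80 ± 0.25, adjusted p = 0.619). Both were lower in all 4 resistant libraries, and the first parental library was the highest of the 6 for both. Of 31 proteasome subunit genes 27 were below 0, with a median of -0.21 and 6 (19.4%) lower in all 4 resistant libraries, against 9.74% of all genes. The median was -0.10 without ridaforolimus replicate 2 and -0.12 without everolimus replicate 1. PSMD8, a subunit of the regulatory particle, had 295 and 277 CPM in parental and 132 to 226 CPM in resistant libraries (-0.71 ± 0.22, adjusted p = 0.613).

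All 13 mRNAs of the mitochondrial genome, which encode respiratory chain subunits, were below 0, with a median of -0.65, and 6 (46.2%) were lower in all 4 resistant libraries, against 9.74% of all genes. MT-ND2, a complex I subunit, had 4529 and 2900 CPM in parental, 1420 and 1384 CPM in everolimus and 1694 and 1945 CPM in ridaforolimus libraries (-1.21 ± 0.23, adjusted p = 0.332 by edgeR and 0.00471 by DESeq2). Most of the list's distance came with the first parental library, and without it the median was -0.27. Nuclear genes of oxidative phosphorylation had a median of -0.15, with 54 of 69 below 0 and 10 (14.5%) lower in all 4 resistant libraries, near the 9.74% of all genes. That median was -0.08 without ridaforolimus replicate 2 and -0.29 without everolimus replicate 2.

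Epithelial identity genes had a median of -0.39, with 16 of 20 below 0 and 7 (35%) lower in all 4 resistant libraries, against 9.74% of all genes. SPINT1, an inhibitor of membrane serine proteases, had 12.8 and 9.58 CPM in parental, 1.23 and 0.595 CPM in everolimus and 0.991 and 3.0 CPM in ridaforolimus libraries (-2.94 ± 0.51, adjusted p = 0.259 by edgeR and 7.59e-05 by DESeq2). The adhesion molecule EPCAM had 4.43 and 5.35 CPM in parental and 1.01 to 2.52 CPM in resistant libraries (-1.48 ± 0.37, adjusted p = 0.539). KRT7, a keratin of simple epithelia, had 832 and 754 CPM in parental and 351 to 531 CPM in resistant libraries (-0.78 ± 0.20, adjusted p = 0.563). With CLDN7, these genes were lower in each resistant library. Other members split the lines: the splicing regulator ESRP1 had 9.78 and 7.40 CPM in parental, 3.26 and 3.64 CPM in everolimus and 12.8 and 11.2 CPM in ridaforolimus libraries.

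Mesenchymal genes stood on the other side, with 10 of 11 above 0 and a median of 0.55, but 1 of them (9.09%) was higher in all 4 resistant libraries, near the 9.54% of all genes. The median was 0.31 without ridaforolimus replicate 2 and 0.33 without parental replicate 2. The 1 gene was VIM, the intermediate filament vimentin, with 302 and 323 CPM in parental, 351 and 585 CPM in everolimus and 483 and 646 CPM in ridaforolimus libraries (0.73 ± 0.26, adjusted p = 0.649, edgeR). FN1, the matrix protein fibronectin, had 1363 and 1081 CPM in parental, 2827 and 2346 CPM in everolimus and 1204 and 5286 CPM in ridaforolimus libraries. Its ridaforolimus libraries were the second lowest and the highest of the 6, so the groups overlapped (1.25 ± 0.50, adjusted p = 0.662). Matrix proteases and their inhibitors had a median of 0.31, with 16 of 22 above 0, but -0.01 in the everolimus line alone and 0.14 in the pooled comparison without ridaforolimus replicate 2. Besides ADAMTS9, ADAMTS6 was at 5.04 and 7.40 CPM in parental, 13.5 and 24.5 CPM in everolimus and 69.9 and 42.3 CPM in ridaforolimus libraries (2.59 ± 0.63, adjusted p = 0.502 by edgeR and 0.0008 by DESeq2).

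In the TGF-beta pathway, ligands bind type II and type I receptors, which activate SMADs, and SMADs induce their own inhibitors. Among 24 ligand, receptor and SMAD genes, 4 (16.7%) were higher and 2 (8.33%) lower in all 4 resistant libraries, against 9.54% and 9.74% of all genes. INHBB, a subunit of activin B, had 8.71 and 12.7 CPM in parental, 1.23 and 4.89 CPM in everolimus and 1.37 and 1.61 CPM in ridaforolimus libraries (-2.22 ± 0.53, adjusted p = 0.479 by edgeR and 0.0217 by DESeq2). NRROS, which anchors latent TGF-beta, had 2.44 and 2.96 CPM in parental and 4.64 to 6.36 CPM in resistant libraries (0.92 ± 0.30, adjusted p = 0.645). Of 11 feedback inhibitors 7 were above 0, with a median of 0.44, and 4 (36.4%, against 9.54% of all genes) were higher in all 4 resistant libraries: PMEPA1, SMAD7, LDLRAD4 and BAMBI. The median was 0.19 in the everolimus and 0.66 in the ridaforolimus line, and the pooled one was 0.23 without ridaforolimus replicate 1. SMAD7, which blocks the type I receptor, had 7.41 and 6.90 CPM in parental, 23.1 and 13.9 CPM in everolimus and 12.7 and 11.6 CPM in ridaforolimus libraries (1.10 ± 0.33, adjusted p = 0.613). LDLRAD4, a relative of PMEPA1, had 1.68 and 1.34 CPM in parental, 2.25 and 2.64 CPM in everolimus and 6.56 and 7.23 CPM in ridaforolimus libraries (1.62 ± 0.57, adjusted p = 0.649). The everolimus line had the most SMAD7 and the ridaforolimus line the most LDLRAD4. SMAD target genes showed no common direction, with 12 of 23 above 0, a median of 0.14 in the pooled comparison and -0.18 in the everolimus line.

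Genes of the PI3K, AKT and mTOR pathway had a median of 0.02 over 47 tested members, 7 of them (14.9%) higher and 6 (12.8%) lower in all 4 resistant libraries, near the 9.54% and 9.74% of all genes. EIF4B, a translation initiation factor that S6 kinase phosphorylates, had 308 and 357 CPM in parental, 506 and 421 CPM in everolimus and 626 and 669 CPM in ridaforolimus libraries (0.74 ± 0.23, adjusted p = 0.619, edgeR). PDCD4, a translation inhibitor that S6 kinase marks for destruction, had 32.7 and 37.5 CPM in parental and 46.6 to 82.6 CPM in resistant libraries (0.76 ± 0.25, adjusted p = 0.649). Both S6 kinase genes were lower in all 4 resistant libraries, RPS6KB1 with 80.1 and 74.0 CPM in parental and 46.5 to 59.8 CPM in resistant libraries (-0.50 ± 0.17) and RPS6KB2 with 48.7 and 44.9 CPM against 28.3 to 39.1 CPM (-0.52 ± 0.19, adjusted p = 0.649 for both). EIF4EBP1, which encodes the translation repressor 4E-BP1, had 162 and 186 CPM in parental, 100.3 and 67.6 CPM in everolimus and 153 and 51.4 CPM in ridaforolimus libraries (-0.90 ± 0.37, adjusted p = 0.662). Like the ATF4 targets, its lowest value in each line was in the second library. MTOR itself overlapped between the groups, with 148 and 142 CPM in parental and 96.8 to 167 CPM in resistant libraries.

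The genes of the drugs' own target did not separate the groups. FKBP1A, which encodes FKBP12, had 209 and 183 CPM in parental, 177 and 216 CPM in everolimus and 188 and 214 CPM in ridaforolimus libraries, a difference of 0.02 ± 0.17 (adjusted p = 0.983, edgeR). Of 13 FK506-binding protein genes 0 were higher and 2 lower (15.4%, against 9.74% of all genes) in all 4 resistant libraries, with a median of 0.02. Among 12 ABC transporters, which export drugs and lipids, 1 (8.33%) was higher and 1 (8.33%) lower in all 4. Both shares were near the 9.54% and 9.74% of all genes. The higher one was ABCC5, with 77.6 and 72.3 CPM in parental and 90.2 to 107 CPM in resistant libraries (0.43 ± 0.16, adjusted p = 0.651, edgeR). The differences of FKBP1A and ABCC5 were small beside those of the named genes.

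The 7 tested MHC class II genes, which present antigen and are driven by CIITA, were all below 0, with a median of -1.30 that was -0.75 in the everolimus and -2.04 in the ridaforolimus line. Without parental replicate 1 the pooled median was -0.84. Most were at low levels. CD74, the invariant chain, had 14.0 and 7.89 CPM in parental, 8.33 and 2.38 CPM in everolimus and 2.74 and 2.26 CPM in ridaforolimus libraries (-1.47 ± 0.54, adjusted p = 0.65, edgeR). Its first everolimus library overlapped the parental range, so 3 of the 7 genes, HLA-DMB, HLA-DRA and HLA-DPA1, and not CD74, were lower in all 4 resistant libraries (42.9%, against 9.74% of all genes). HLA genes share reads with near-identical copies, and their counts are uncertain.

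Lists of cell division and lipid synthesis did not share a direction between the lines. Cholesterol and fatty acid synthesis had a pooled median of 0.31, made of 0.58 in the everolimus and -0.05 in the ridaforolimus line, and it was 0.02 without the second everolimus library, 0.19 without parental replicate 1 and 0.56 without parental replicate 2. INSIG1, the sterol-regulated brake of this pathway, had 7.87 and 13.9 CPM in parental, 18.2 and 76.0 CPM in everolimus and 15.5 and 14.7 CPM in ridaforolimus libraries. The second everolimus library alone stood out. Replication genes had medians of 0.29 and -0.21 in the everolimus and ridaforolimus lines, and mitosis genes 0.09 and -0.37. Their pooled medians of 0.07 and -0.15 changed sign with the library left out: 0.37 and 0.17 without parental replicate 2, and -0.29 and -0.41 without everolimus replicate 2.

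Some genes went apart between the lines and were hidden by pooling. The line difference was called for 158 of 21223 genes (0.744%) by edgeR. TP63, a transcription factor of basal epithelium, had 0.764 and 0.282 CPM in parental, 0.362 and 0.595 CPM in everolimus and 16.8 and 16.1 CPM in ridaforolimus libraries. Its pooled difference of 4.01 ± 1.66 (adjusted p = 0.662) thus described 1 line, and the line difference was 5.07 (adjusted p = 0.0116). APOL6, an apolipoprotein L, had 49.2 and 47.9 CPM in parental, 80.2 and 43.9 CPM in everolimus and 3.89 and 3.58 CPM in ridaforolimus libraries, a line difference of -4.05 (adjusted p = 0.0116). VIPR1, a receptor for vasoactive intestinal peptide, had 3.13 and 6.62 CPM in parental, 30.6 and 33.2 CPM in everolimus and 2.59 and 1.90 CPM in ridaforolimus libraries, a line difference of -3.82 (adjusted p = 0.0116). For APOL6 and VIPR1 a pooled mean stands for neither line.

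On the X chromosome, APOOL, a mitochondrial cristae protein, had 33.2 and 35.2 CPM in parental, 23.0 and 24 CPM in everolimus and 120 and 126 CPM in ridaforolimus libraries. CHM, a Rab escort protein, had 36.3 and 37.1 CPM in parental, 42.3 and 34.4 CPM in everolimus and 150 and 143 CPM in ridaforolimus libraries. Both were high in the ridaforolimus line, with line differences of 2.39 and 1.93 (adjusted p = 0.0116 for both, edgeR). In the everolimus line CHM was near parental (0.06), while APOOL was below both parental libraries (-0.54 ± 0.18), which adds to its line difference. The glycolytic enzyme gene PGK1, also on X, had 457 and 389 CPM in parental, 384 and 321 CPM in everolimus and 1078 and 2280 CPM in ridaforolimus libraries. Without chromosome X and genes lacking a position, 19636 genes were tested. The count of called line differences was then 72 in place of 158, and the pooled count stayed at 0. The adjusted p-values were computed anew over these genes, so the drop is not a count of calls on X.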

How the data were processed

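RNA was extracted with the RNeasy Mini Kit and libraries were made with the TruSeq Stranded mRNA kit, per the labels' protocols. The deposited table holds unnormalised read counts for Ensembl genes in 1 column for each of the 6 libraries. Trim Galore 0.6.6, STAR 2.7.9a, HTSeq 0.13.5, DESeq2 and the build GRCh38 (hg38) are named without roles, per the submitters' processing notes. Strand handling and annotation version of the counting are not given in the sources here, so counts of overlapping, antisense and near-identical genes are uncertain. Of 69292 gene IDs, 28459 had no count in any library, 62625 had a symbol and 58279 a position in GENCODE 29, which gave all gene positions.

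Resistant and parental libraries were compared with edgeR 4.0.16 in R 4.3.3 (TMM, filterByExpr over the 3 groups, glmQLFit and glmQLFTest, two-sided, 4 residual degrees of freedom) over 21223 genes, at a Benjamini-Hochberg adjusted p under 0.05. Each line and the line difference came from a fit of 3 group means (3 residual degrees of freedom). Fold changes are log2 values of resistant over parental ± SE, and CPM use the TMM-scaled totals. DESeq2 1.42.0, limma 3.58.1 (voom), other scaling, other filters, a replicate block, leaving out chromosome X and leaving out each library were the alternatives. Leaving out chromosome X also left out the genes without a position. The fit was tested on simulated data. Intervals cover the spread between these libraries, and depth per library limits genes of a few CPM.

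Named genes were PMEPA1; per direction, 12 genes with all 4 resistant libraries on 1 side of both parental ones, a mean of at least 5 CPM and a symbol that is no pseudogene, clone, LINC or antisense name, taken by lowest p because none was called; up to 2 members per list of 33 pathway lists by lowest p; the 5 called genes per direction with opposite signs in the lines and the largest line difference; and the 3 per direction called in 1 line by lowest p. Other list members were chosen after their values were seen, to show a role. The members, the lists and the rule were chosen with earlier results of these data known.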

Additional observations from a re-analysis of the deposited data

Results flagged for a closer look

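In 8 of 97 genes named, 1 of the 4 resistant libraries lay far from the other 3: its gap to the nearest, as a share of the range of the 4 CPM values, was above 0.829. Chance gives about 1 such gene in 20. The share was 0.848 for PMEPA1 (low in the first everolimus library), 0.936 for DPY19L1 (low in the same library) and 0.897 for INHBB (high in the second everolimus library). It was 0.943 for INSIG1 (high in the second everolimus library) and 0.921 for CD74 (high in the first). The second ridaforolimus library was the high one for MIR181A1HG (0.897), NRROS (0.904) and ATF3 (0.878).

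The 2 lines differed from each other by edgeR's test for 14 of the named genes, 10 of which were named because they had such a difference, so this count follows from the choice of genes. Over all genes it was 158 of 21223 (0.744%). The adjusted p was 0.0116 for TP63, APOL6, VIPR1, APOOL, CHM, POF1B, ACP7 and GLB1L2, 0.0129 for NEXMIF, 0.0183 for GRAMD1B, 0.02 for CDH12, 0.0212 for F13A1, 0.0371 for PGK1 and 0.0499 for CASC19. NEXMIF and POF1B, both on chromosome X, were at 0.0764 CPM or below in parental and at 0 in everolimus libraries, against 6.02 and 11.6 CPM for NEXMIF and 6.78 and 9.57 CPM for POF1B in the ridaforolimus line. ACP7, an acid phosphatase, had 0.611 and 0.634 CPM in parental, 0.0724 and 0.132 CPM in everolimus and 7.93 and 5.70 CPM in ridaforolimus libraries. GRAMD1B, a sterol transfer protein, had 1.22 and 1.13 CPM, 0.145 and 0.595 CPM, and 7.32 and 14.5 CPM in the same order. GLB1L2 went the other way, with 3.74 and 3.66 CPM in parental, 9.49 and 6.21 CPM in everolimus and 0 in both ridaforolimus libraries. F13A1, the coagulation factor XIII A chain, had 2.44 and 1.97 CPM in parental, 30.1 and 7.27 CPM in everolimus and 0.152 and 0.219 CPM in ridaforolimus libraries. CDH12, a cadherin, had 0.535 and 0.563 CPM, 2.46 and 3.37 CPM, and 0 and 0.0731 CPM in the same order.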

How the results depend on the processing

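The pooled count of called genes was 0 with edgeR, and also with other size factors, a filter of 5 CPM in 2 libraries and limma-voom. It was 0 too without chromosome X and genes lacking a position. It was 74 when every gene with a count was tested, 88 with DESeq2 and 5 with 3 group means. It ranged from 0 to 3 with 1 library left out: 3 genes (S100P, LCN2 and CASC19) were called without everolimus replicate 1. All genes called under these settings lay on the same side in both lines with groups apart, so the count of shared genes was the same, 74, 88, 5 and 0 to 3. Of the 74, DESeq2 also called 60. PMEPA1 passed with DESeq2 (1.25, adjusted p = 0.0362) and ranged from 0.91 to 1.71 with 1 library left out, without passing.

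The count of line differences was 158, and its alternatives were chosen after seeing the data. It was 1362 with every gene with a count, 657 with DESeq2 and 144 with other size factors. With limma-voom it was 113, with the 5 CPM filter 81, and without chromosome X and genes lacking a position 72. Leaving out 1 library gave 19 (without ridaforolimus replicate 2) to 123. The causes were not tested.

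Replicate numbers were fitted as a replicate block too. The pooled count was then 0, with 1335 genes at an unadjusted p under 0.05, and the count of line differences 49. Replicate differences correlated by 0.382 between the parental and everolimus groups over 18222 genes. Those of the ridaforolimus group correlated by -0.211 with the parental and -0.219 with the everolimus group. The labels do not say whether replicate numbers mark a shared batch, and these values do not decide it.

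Pooled estimates changed sign for 3 genes that differ between the lines: CDH12 was 1.43 and became -0.35 with voom and -0.60 with 3 group means, F13A1 was 2.09 and became -0.24 and -0.21, and GLB1L2 was 0.09 (up to 0.49 without ridaforolimus replicate 2) and became -2.7 and -3.80, -0.81 without everolimus replicate 1 and -0.23 without everolimus replicate 2. Depth limits genes of a few CPM.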
